A study of Rattus norvegicus with 14 samples.

Results

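The retina was compared 1 h after and 1 h before lights off, to describe its early response to darkness. All genes were kept that had at least 5 FPKM in either library, with the transcripts of a gene summed; FPKM counts fragments per kilobase of transcript, scaled to all fragments of the library. This left 6357 of the 16472 genes in the table. The dark library, taken at zeitgeber time 15 (ZT15, in hours after lights on), was a pool of retinas from 10 Sprague-Dawley rats aged 6 to 8 weeks. The light library, taken at ZT13, was another such pool of 10. The light phase lasted 14 h and the dark phase 10 h, so both pools share strain, age and housing, lie 2 h apart and differ in light and in time of day, which cannot be told apart. Retinas were also pooled at ZT1, ZT7, ZT19 and ZT23, and pineal glands at the same 6 times. Poly(A) RNA of each pool gave 1 library, and each time had 1 pool. There is therefore no replicate error and no test here, and every comparison is a ratio of 2 pools.

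Photoreceptors are depolarised in darkness: their cyclic-nucleotide-gated channels are open and they release glutamate continuously, and light closes the channels. The onset of darkness therefore changes the input to every later cell of the retina, and it is also the time when the retinal clock passes to its night state. Immediate early genes are genes that a cell transcribes within minutes of a stimulus, without first making new protein. Most code for transcription factors or for phosphatases that switch signalling kinases off, and calcium, cAMP and MAP kinase signals drive them in neurons.

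Egr1 and Fos dominated the change. Egr1, a zinc finger transcription factor of the immediate early class, was 53.0-fold higher at ZT15 than at ZT13, and Fos, a subunit of the AP-1 transcription factor, was 12.3-fold higher. Of the other immediate early genes, Ier2, Nr4a1, Dusp1 and Junb rose by 3.01-fold to 1.75-fold. Dusp5, a relative of Dusp1 that was in no list and is described for its rise, was 1.80-fold higher. Gadd45b fell. Around these the transcriptome differed little between both pools, and of the phototransduction and clock genes listed here, the cone arrestin gene Arr3 alone passed 1.5-fold among those at the floor of 5 FPKM.

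The upstream sequences of these genes show which stimulus-responsive elements lie beside their start sites. They were read from RefSeq promoters of the GRCr8 build, as the 250 bases before each annotated start, in the direction of the gene. Of 8 promoters wanted, 7 were in the promoter table; that of Fos is named only. Capitals mark the cAMP response element TGACGTCA, its shorter core TGACG, and the CArG box that serum response factor binds. Both strands were searched, so CGTCA is the core on the other strand, and each full element also holds a core on either strand. The 5 promoters that hold a CArG box, a full element or several cores follow.
Egr1, chr18:26736828-26737077: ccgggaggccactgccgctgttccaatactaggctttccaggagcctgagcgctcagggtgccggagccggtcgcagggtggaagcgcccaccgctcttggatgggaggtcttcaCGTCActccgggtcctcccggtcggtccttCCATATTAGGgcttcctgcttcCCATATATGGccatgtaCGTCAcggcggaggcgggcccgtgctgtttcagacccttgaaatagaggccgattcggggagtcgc
Dusp5, chr1:262543524-262543773: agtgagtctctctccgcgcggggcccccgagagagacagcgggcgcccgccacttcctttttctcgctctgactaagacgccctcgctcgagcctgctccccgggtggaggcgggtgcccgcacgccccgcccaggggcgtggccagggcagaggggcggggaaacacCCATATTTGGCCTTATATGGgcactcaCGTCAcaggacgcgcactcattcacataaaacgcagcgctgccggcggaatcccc
Ier2, chr19:40399123-40399372: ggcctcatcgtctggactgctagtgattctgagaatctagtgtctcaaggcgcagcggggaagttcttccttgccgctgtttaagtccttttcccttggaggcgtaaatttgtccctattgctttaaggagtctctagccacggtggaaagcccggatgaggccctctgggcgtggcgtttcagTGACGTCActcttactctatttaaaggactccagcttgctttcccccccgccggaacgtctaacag
Dusp1, chr10:17184603-17184852: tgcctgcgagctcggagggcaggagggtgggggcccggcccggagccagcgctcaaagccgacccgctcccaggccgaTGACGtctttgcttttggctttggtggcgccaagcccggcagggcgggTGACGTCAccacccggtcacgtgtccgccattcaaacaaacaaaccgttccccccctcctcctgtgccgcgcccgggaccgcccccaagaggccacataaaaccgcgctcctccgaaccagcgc
Nr4a1, chr7:134259888-134260137: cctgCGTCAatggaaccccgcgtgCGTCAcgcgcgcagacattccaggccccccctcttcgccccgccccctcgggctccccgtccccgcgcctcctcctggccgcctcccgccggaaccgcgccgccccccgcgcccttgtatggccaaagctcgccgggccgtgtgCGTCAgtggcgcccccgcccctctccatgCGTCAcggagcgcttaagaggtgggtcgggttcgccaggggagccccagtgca
The Egr1 promoter held 2 CArG boxes, at positions -105 to -96 and -83 to -74 counted back from the start, and 2 cores. The Dusp5 promoter held 2 CArG boxes side by side, at -82 to -73 and -72 to -63, with 1 core at -55. The Ier2 promoter held a full cAMP response element at -66 and the Dusp1 promoter 1 at -124. The Nr4a1 promoter held 4 cores, Junb 1 core, and Gadd45b held none of these motifs. Over all 33469 promoters of the table, 1.5% held a CArG box, 1.59% the full element and 18.2% the core. The EGR site GCGNGGGCG was found in 4.29% of all promoters, and here in those of Dusp5 and Nr4a1. The AP-1 site TGANTCA was found in 6.34% of all promoters and in none of these 7. These are matches of letters in one window; binding was not measured.

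Across the 6354 genes above 0 in both pools, the median log2 ratio of ZT15 over ZT13 was 0.0045. The log2 ratio was above 0 in 51.4% of these genes. The middle 50% of genes lay between -0.10 and 0.10 on that scale, and 93.5% of genes were within 1.25-fold. At ZT15, 45 genes (0.708%) were at least 1.5-fold higher and 19 (0.299%) at least 1.5-fold lower. A 2-fold rise was reached by 8 genes (0.126%) and a 2-fold fall by 1 gene (0.0157%). Of the 8, Egr1, Fos, Ier2 and Nr4a1 are immediate early genes. The others were Psmd10 (named as a proteasome subunit), Usmg5 (a small protein of the ATP synthase), the ribosomal protein gene Rpl23 and the ribosomal pseudogene Rpl37a-ps1. In what follows, rose and fell are used of genes past 1.5-fold.

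**Figure D1:**
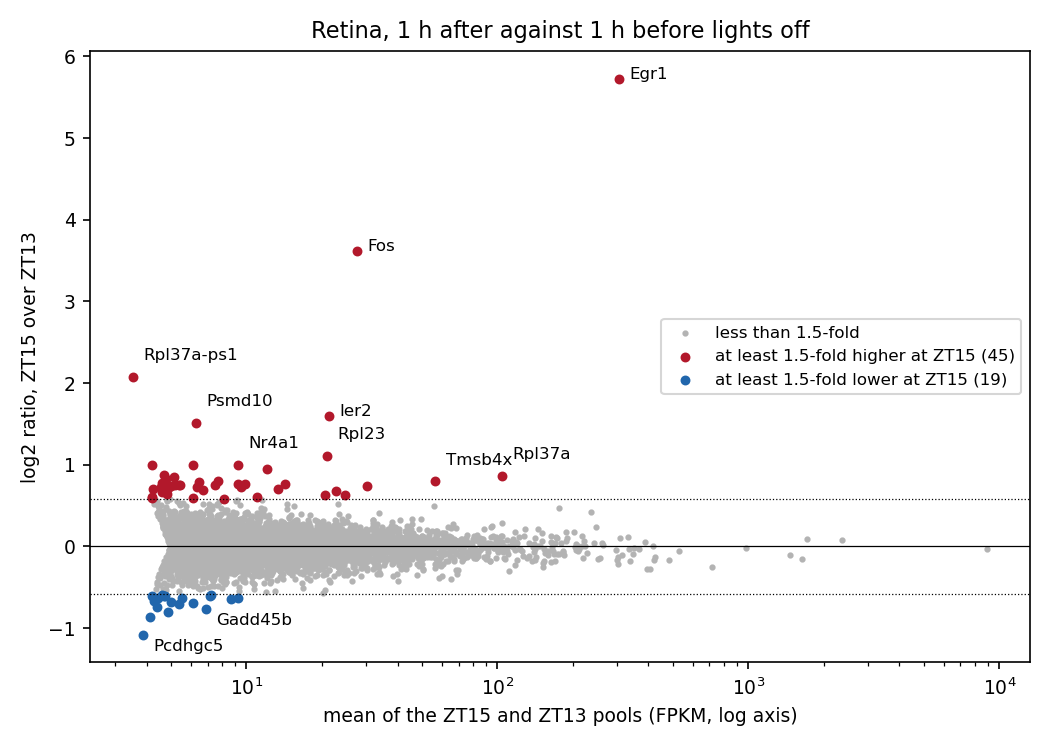
Each point is 1 of 6354 genes: the x axis is the mean FPKM of the ZT15 and ZT13 retina pools (log scale), the y axis the log2 ratio of ZT15 over ZT13, and the dotted lines mark 1.5-fold. Egr1 at 5.73 and Fos at 3.62 stand far above the band of grey points, and the 19 lower genes all lie at the low-expression end.

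Of all 64 genes past 1.5-fold in either direction (1.01%), 54 were under 20 FPKM in both pools: 35 of the 45 higher and all 19 of the lower genes, beside 4658 of all 6354 genes. At this end of the scale counting error is widest. The FPKM of 1 fragment in a 1-kb transcript, estimated from the lowest olfactory receptor values, was about 0.0364 at ZT15 and 0.0385 at ZT13. A 1-kb transcript at 5 FPKM would then rest on about 137 fragments at ZT15 and 129.8 at ZT13, and a shorter one on fewer. Of 407 genes with at least 50 FPKM in either pool, 4 rose (Egr1, Fos, Rpl37a and Tmsb4x) and none fell. Values just inside the floor of 5 FPKM were those of Xkr7 (5.001 FPKM at ZT15 and 4.85 at ZT13) and Cacnb1 (5.004 at ZT15 and 4.77 at ZT13). Just outside it lay Bai3, with 4.999 FPKM at ZT15 and 4.80 at ZT13.

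Another 3 genes were listed at 0 in one of both pools and have no ratio. Hist1h1d, a linker histone gene, had 0 FPKM at ZT15, 8.27 at ZT13 and 0 in the other 4 retina pools. Myl6l, a myosin light chain gene, had 5.44 FPKM at ZT15 and 0 at ZT13, and it was also listed at 0 at ZT19. A transcript with no gene name had 52.6 FPKM at ZT15, 0 at ZT13 and 208 at ZT23, and 0 at the other 3 times. Myl6l and the unnamed transcript switched between 0 and clear values in other pools as well, and these zeros are given only as listed.

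Egr1 (rn4 chr18:27343919-27346117) had 47.3 FPKM at ZT1, 4.19 at ZT7, 11.3 at ZT13, 600.1 at ZT15, 299 at ZT19 and 170 at ZT23. All 3 dark pools were above all 3 light pools, and ZT15 was 12.7-fold above the highest light pool. By level per length, Egr1 ranked 8 among all genes at ZT15 and 3229 at ZT13. It was still 15.0-fold above ZT13 at ZT23 and 4.18-fold above it at ZT1, after 1 h of light. Fos (rn4 chr6:109559135-109562001) had 19.6, 3.78, 4.14, 51.0, 47.0 and 25.1 FPKM at the same times from ZT1 to ZT23. Its ZT15 and ZT19 pools were close, at 12.3-fold and 11.3-fold above ZT13, and its ZT1 pool was nearest to the dark pools.

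Ier2, which codes for a nuclear protein of the immediate early class, had 15.7, 12.5, 10.6, 31.9, 26.0 and 21.5 FPKM from ZT1 to ZT23. Like Egr1 and Fos, it was highest at ZT15 and declined over the night, with all dark pools above all light pools. Dusp1, a phosphatase that inactivates MAP kinases, had 10.3, 11.3, 8.22, 15.8, 21.3 and 21.3 FPKM. Its dark pools were also all above the light pools, but ZT19 and ZT23 were higher than ZT15. Its log2 ratio of ZT15 over ZT13 was 0.94.

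The other 3 of these 7 genes that rose reached their highest level later than ZT15. Nr4a1, an orphan nuclear receptor, had 20.8, 6.004, 6.17, 12.4, 31.2 and 19.7 FPKM from ZT1 to ZT23. It was 2.002-fold above ZT13 at ZT15 and 5.05-fold above it at ZT19, and its ZT1 pool in the light was higher than its ZT15 pool. Junb, a partner of Fos in AP-1, had 9.80, 4.995, 5.59, 9.77, 18.9 and 15.0 FPKM, 1.75-fold above ZT13 at ZT15 and 3.38-fold above it at ZT19. Dusp5, a nuclear phosphatase of the MAP kinase ERK, had 8.22, 4.78, 3.67, 6.59, 8.68 and 8.80 FPKM, a 1.80-fold rise. Of 7 dual specificity phosphatase genes at the floor, Dusp1 and Dusp5 rose, beside 0.708% of all genes. Dusp5 was chosen for its rise, so this count is a description only. The other 5 ran from Dusp11, with 5.93 FPKM at ZT15 and 3.96 at ZT13, to Dusp4, with 4.96 at ZT15 and 6.82 at ZT13. For Nr4a1, Junb and Dusp5 alike, ZT1 was above ZT15, so light and dark pools overlapped. The spread between these patterns is visible in the profiles by time of day.

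**Figure D2:**
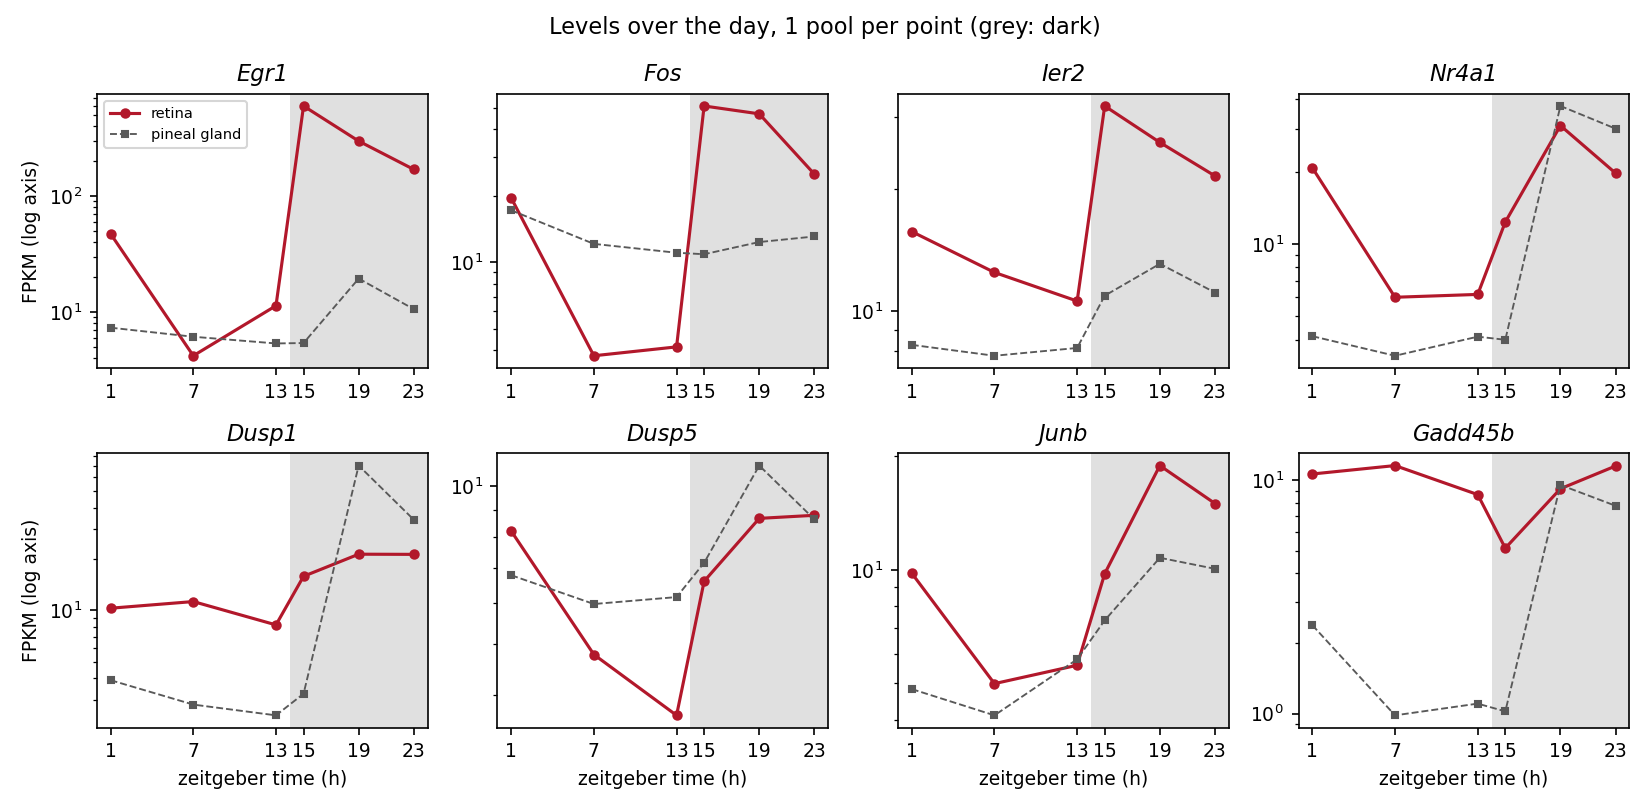
FPKM (log axis) of 7 immediate early genes and Dusp5 against zeitgeber time in hours, with retina pools as red circles, pineal pools as grey squares, and the dark phase shaded; each point is 1 pool. Egr1, Fos and Ier2 peak at ZT15 in the retina (600.1, 51.0 and 31.9 FPKM), Nr4a1 and Junb peak at ZT19, and Gadd45b is lowest at ZT15.

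Of 32 immediate early genes in the table, 12 reached the floor, of which 6 rose and 1 fell; over all genes 0.708% rose and 0.299% fell. The 12 had a median log2 ratio of 0.45, and 7 were above 0, near the 51.4% of all genes. The summed level of all 32, those under the floor included, was 811 FPKM at ZT15 and 144 at ZT13; without Egr1 it was 211 at ZT15 and 133 at ZT13. The class did not move as a block. Jun, the main partner of Fos, had 10.4 FPKM at ZT15 and 11.04 at ZT13, and Jund 14.0 at ZT15 and 13.1 at ZT13. Btg2, an antiproliferative gene, had 18.7 FPKM at ZT15 and 19.97 at ZT13, and Ctgf, a matrix-associated growth factor, 7.07 at ZT15 and 7.80 at ZT13. The other 20 were under 5 FPKM in both pools, the highest of them at 4.93.

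The GADD45 stress proteins, which bind kinases and cell-cycle regulators, did not move together. Gadd45b had 10.6, 11.6, 8.69, 5.12, 9.20 and 11.5 FPKM from ZT1 to ZT23. ZT15 was its lowest pool, 1.70-fold below ZT13, and its level was back above ZT13 at ZT19. Gadd45g had 10.6 FPKM at ZT15 and 15.5 at ZT13, a log2 ratio of -0.55, and was lower still at ZT19 and ZT23 (8.30 and 7.98). Gadd45a, which was in no list, rose 1.70-fold, with 11.6 FPKM at ZT15 and 6.84 at ZT13.

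In the pineal gland of rats kept in the same way, Egr1, Fos and Nr4a1 were near level between the same times, and Ier2 had 10.9 FPKM at ZT15 and 8.12 at ZT13. Egr1 had 5.39 FPKM at ZT15 and 5.35 at ZT13 there, Fos 10.9 at ZT15 and 11.1 at ZT13, and Nr4a1 3.99 at ZT15 and 4.11 at ZT13. Pineal Dusp1 had 3.25 FPKM at ZT15 and 2.43 at ZT13, Junb 7.35 at ZT15 and 5.79 at ZT13, and Dusp5 7.15 at ZT15 and 6.15 at ZT13. Those 3 and Ier2 were higher at ZT15 in the pineal gland too, but short of 1.5-fold. Pineal Nr4a1 and Dusp1 were high later, at 37.6 and 70.4 FPKM at ZT19. At that time pineal Egr1 had 19.4 FPKM and pineal Fos 12.4. Both tissues held the Nr4a1 and Dusp1 transcripts at night, and the retina pools were past 1.5-fold at ZT15 already. With 1 pool per time the difference between the tissues was not tested.

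Of 15 clock genes at the floor, 0 passed 1.5-fold, which at 1.01% of all genes does not set them apart, and their log2 ratios ran from -0.07 to 0.19. The light-inducible repressor Per1 had 17.2 FPKM at ZT15 and 17.9 at ZT13. Per3 had 25.05 FPKM at ZT15 and 25.9 at ZT13, and Cry1 10.0 at ZT15 and 9.28 at ZT13. Arntl, the activator of the loop, had 25.5 FPKM at ZT15 and 24.5 at ZT13. The repressor Nr1d1 had 47.1 FPKM at ZT15 and 46.1 at ZT13, and the clock output factor Dbp 42.8 at ZT15 and 41.5 at ZT13. Csnk1e, a kinase of the PER proteins, had 17.4 FPKM at ZT15 and 15.9 at ZT13, but 51.6 at ZT19.

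Of 9 rod phototransduction genes 0 passed 1.5-fold, with a median log2 ratio of 0.003. Gnat1, the rod transducin subunit, had 2426 FPKM at ZT15 and 2294 at ZT13, and Cnga1, a subunit of the rod cyclic-nucleotide-gated channel, 228 at ZT15 and 208 at ZT13. Of 8 cone phototransduction genes, 0 passed 1.5-fold. Among them 6 were above 0, beside 51.4% of all genes, with a median of 0.23 beside 0.0045 for all genes. Opn1sw, the short-wavelength cone opsin, had 9.68 FPKM at ZT15 and 7.10 at ZT13. The inhibitory cone phosphodiesterase subunit Pde6h had 20.3 FPKM at ZT15 and 15.6 at ZT13, and the cone transducin Gnat2 35.04 at ZT15 and 28.8 at ZT13. Gnb3, which cones share with ON bipolar cells, had 54.6 FPKM at ZT15 and 54.7 at ZT13.

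Cone arrestin, Arr3, which quenches activated cone opsin, was the one shut-off gene that rose. It had 11.4, 17.0, 17.5, 27.9, 20.4 and 13.4 FPKM from ZT1 to ZT23, 1.598-fold higher at ZT15 than at ZT13 and highest at ZT15. Rod arrestin, Sag, had 1764 FPKM at ZT15 and 1660 at ZT13. All 7 cone markers at the floor were above 0 here, beside 51.4% of all genes. Arr3 is 1 of them, and the others are also in the cone phototransduction list above. The summed level of the cone marker list, Arr3 included, was 147 FPKM at ZT15 and 116 at ZT13. The ZT13 sum was the lowest of the 6 retina pools (range 116 to 148). In pooled tissue, fewer cells of a type and less RNA per cell cannot be told apart, and the part of the cone markers in the Arr3 value was not tested. Gng13, a G protein subunit of ON bipolar cells, was the one synaptic gene that rose. It had 31.7, 57.4, 22.8, 37.9, 48.9 and 46.4 FPKM from ZT1 to ZT23, so ZT13 was its lowest pool. The bipolar marker list, which includes Gng13, summed to 372 FPKM at ZT15 and 358 at ZT13. Of its 9 members at the floor, Gng13 alone passed 1.5-fold, and their median log2 ratio was 0.055.

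**Figure D3:**
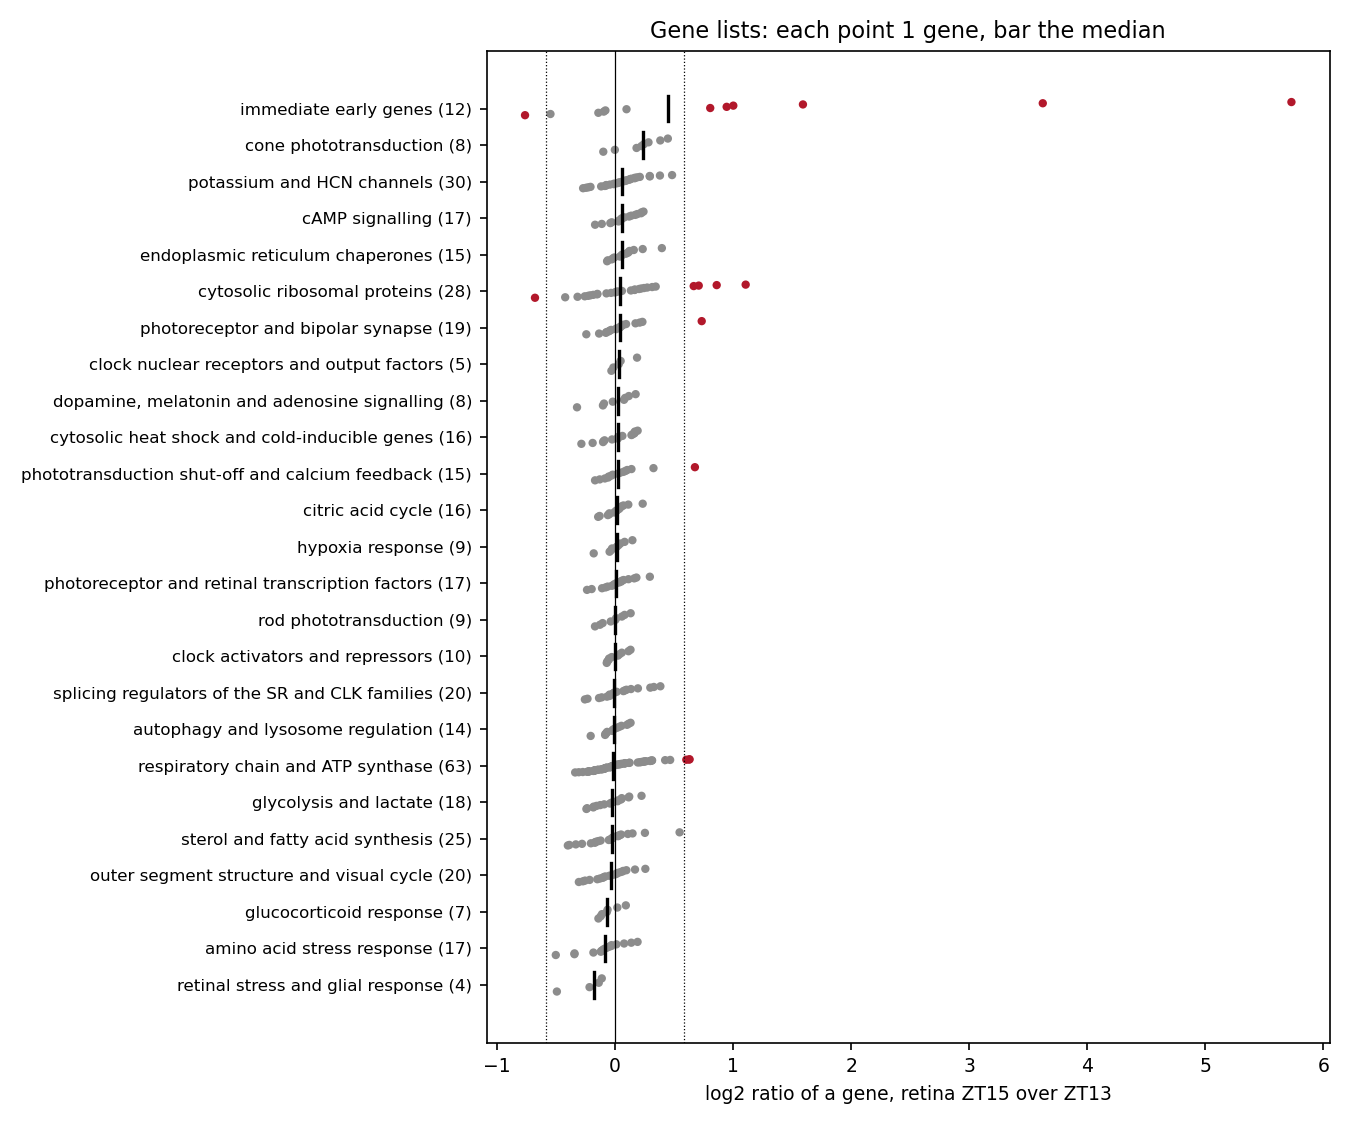
Each point is the log2 ratio of 1 gene, retina ZT15 over ZT13, in the 25 gene lists (number of members at the floor in brackets); black bars are medians, dotted lines mark 1.5-fold and red points lie past it. The immediate early genes reach 5.73 with a median of 0.45, and the medians of the other 24 lists lie between -0.18 and 0.23.

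Among 25 lists of retinal, metabolic and stress genes, 20 had no member past 1.5-fold, in all 285 distinct genes; the lists are grouped here by that outcome, and 1.01% of all genes passed it. They include cAMP signalling (17 genes, 13 above 0), dopamine, melatonin and adenosine signalling (8 genes), potassium and HCN channels (30), the hypoxia response (9) and the glucocorticoid response (7). Over all genes 51.4% were above 0. In the outer segment and visual cycle list, Rom1, a structural protein of the disc rim, had 656 FPKM at ZT15 and 782 at ZT13, and Prph2, its partner, 1555 at ZT15 and 1726 at ZT13. Opn4, the melanopsin of intrinsically photosensitive ganglion cells, had 9.91 FPKM at ZT15 and 9.35 at ZT13. Drd4, the dopamine receptor of photoreceptors, had 19.3 FPKM at ZT15 and 18.3 at ZT13, but 65.2 at ZT19. All 4 genes of the retinal stress and glial list were below 0, with a median of -0.18, and Gfap, an astrocyte and reactive glial filament, had 5.82 FPKM at ZT15 and 8.19 at ZT13. The astrocyte markers, of which Gfap is 1, summed to 25.5 FPKM at ZT15 and 32.7 at ZT13, and this was not tested as a source of the Gfap value.

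Genes of energy metabolism and translation were among the other rises. Of 63 respiratory chain and ATP synthase genes, 3 rose, beside 0.708% of all genes, with a list median of -0.02. Ndufa2, a subunit of complex I, had 30.0 FPKM at ZT15 and 19.4 at ZT13. Atp5i had 24.9 FPKM at ZT15 and 16.1 at ZT13, but 60.8 at ZT7, and Atp5g1 13.3 at ZT15 and 8.75 at ZT13; both are subunits of the ATP synthase. Of 28 cytosolic ribosomal protein genes, 4 rose and 1 fell, beside 0.708% and 0.299% of all genes, with a median of 0.04. Rpl37a had 134 FPKM at ZT15 and 74.0 at ZT13, and Rpl23 28.6 at ZT15 and 13.3 at ZT13. Rps23 fell to 3.83 FPKM at ZT15, against 6.14 at ZT13. Ribosomal protein genes have many near-identical copies in the genome, between which reads can be split, so these values are uncertain, and Rpl37a-ps1 (5.72 FPKM at ZT15 and 1.36 at ZT13) may share reads with Rpl37a.

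Outside the lists, Psmd10 had 9.31 FPKM at ZT15 and 3.25 at ZT13, and 11.8 at ZT7. Tmsb4x, which codes for the actin-binding thymosin beta 4, had 71.7 FPKM at ZT15 and 41.3 at ZT13. Its other 4 pools lay between 60.0 and 96.7, so ZT13 was the pool apart. Tbca, a tubulin folding cofactor, had 12.4 FPKM at ZT15 and 7.31 at ZT13, while its other 4 pools lay between 11.9 and 13.6. Tmsb4x is described as X-linked but listed at rn4 chr5:59581839-59582433. Psmd10 is listed at rn4 chrX:128790730-128790898 and Tbca at rn4 chr7:141657522-141658053, both short spans. Whether these 3 values include reads of other copies of the genes was not tested. Crygn, a gamma crystallin, had 6.76 FPKM at ZT15 and 4.001 at ZT13. The lens markers, which include Crygn, summed to 279 FPKM at ZT15 and 265 at ZT13, over a retina range of 238 to 1918. Dus2l, a tRNA-modifying enzyme, rose to 9.44 FPKM at ZT15, against 5.60 at ZT13, and its 3 dark pools were all above its light pools.

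Lower genes were all weakly expressed. Pcdhgc5, a gamma protocadherin of neuronal cell surfaces, was the 1 gene past a 2-fold fall, with 2.49 FPKM at ZT15 and 5.26 at ZT13; it was lower still at ZT23 (2.02). Tac2, the rat gene for the neurokinin B precursor, had 7.90, 11.6, 10.5, 6.75, 6.51 and 5.13 FPKM from ZT1 to ZT23, with all dark pools below all light pools. Pomc, the precursor of melanocortins and beta-endorphin, had 3.32 FPKM at ZT15 and 5.27 at ZT13, which was its highest pool. Ctss, a lysosomal protease of microglia, had 4.35 FPKM at ZT15 and 6.76 at ZT13, beside a microglial marker sum of 14.5 at ZT15 and 16.3 at ZT13 that was not tested as its source. All 9 of these markers were under 5 FPKM in both pools. They were mixed, with Cx3cr1, Csf1r and C1qb higher at ZT15 and the others lower. Thrsp, a lipogenesis gene, had 7.23 FPKM at ZT15 and 11.2 at ZT13. Id1, an inhibitor of basic helix-loop-helix factors, had 5.76 FPKM at ZT15 and 8.71 at ZT13. Among genes of at least 50 FPKM the largest decreases stayed short of 1.5-fold, led on the log2 scale by Hist3h2ba (-0.40), Ttr (-0.39) and Cartpt (-0.36). Ttr, the retinol-carrier partner transthyretin, is also a pigment epithelium marker. That list summed to 163 FPKM at ZT15 and 182 at ZT13 (153 to 210 over the 6 retina pools). Most of the sum is Ttr itself (50.9 at ZT15 and 66.6 at ZT13) and Rlbp1, also a Muller glia marker (76.9 at ZT15 and 82.7 at ZT13). Of its 5 members at the floor, Rpe65 and Tyrp1 were higher at ZT15, and Ttr, Rlbp1 and Rgr lower. The part of this tissue in the Ttr value was not tested.

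Each gene past 1.5-fold was also placed among all 6 retina pools. Of the 45 higher genes, ZT15 was above the other 5 pools in 14, ZT13 was below the other 5 in 31, and 7 met both. ZT13 lay further than ZT15 from the mean of the other 4 pools in 37 of the 45. Among the 19 lower genes ZT15 lay further in 14, so in both directions the further pool was mostly the lower one. That mean includes ZT7, whose summed FPKM was the highest of the 6 retina pools. The count therefore does not show which pool carried a ratio, and no share over all genes is given beside it. Over all 6354 genes, ZT13 was the lowest pool in 17.96% and ZT15 the highest in 6.66%. Of the 45, 8 were also 1.5-fold above ZT7. Of the 19 lower genes, ZT15 was below the other 5 pools in 13, beside 11.9% of all genes. All 19 were below ZT7 at ZT15, and 13 were at least 1.5-fold below it. ZT7 was high for many genes: ZT13 over ZT7 had a median log2 ratio of -0.19. In that step 245 of 6572 genes were at least 1.5-fold lower and 11 higher. The ratio that chose the genes uses both pools, so these counts are descriptions. At ZT19, 25 of the 45 higher genes were still at least 1.5-fold above ZT13, and 4 of the 19 lower genes at least 1.5-fold below it. For these ZT7 and ZT19 counts no share over all genes is given, so they do not set the called genes apart. All 3 dark pools were above all light pools in 7 of the 45, and below them in 6 of the 19. Over all 6354 genes, 1.04% had all dark pools above and 15.3% had them below. Under median-of-ratios scaling the 7 and 6 became 12 and 4.

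**Figure D4:**
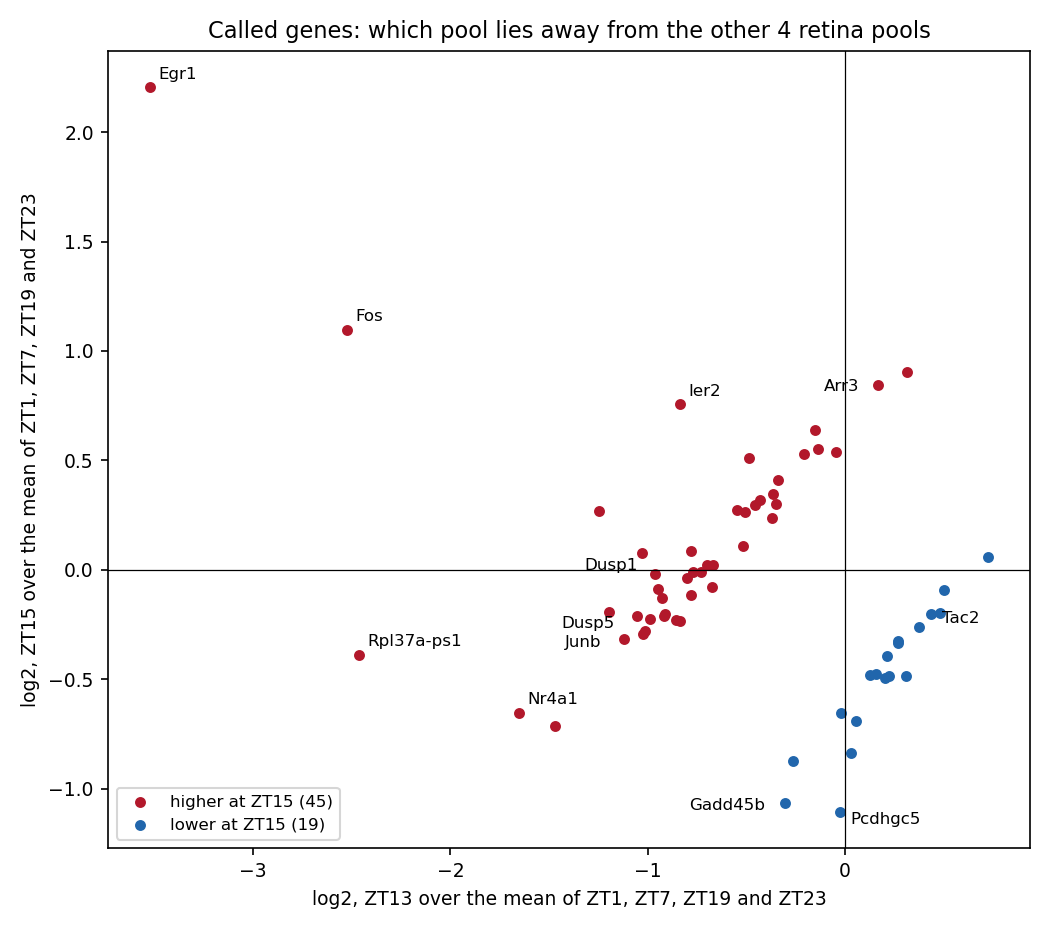
For the 64 genes past 1.5-fold, the x axis is the log2 ratio of the ZT13 retina pool over the mean of the ZT1, ZT7, ZT19 and ZT23 pools, and the y axis the same for the ZT15 pool. Egr1 and Fos are apart in both directions, and 37 of the 45 higher genes (red) lie further from 0 on the ZT13 axis. Of the 19 lower genes (blue), 14 lie further from 0 on the ZT15 axis.

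Set against other neighbouring times, the step across lights off was the quietest of the 6 in the retina by this count. The share past 1.5-fold was 7.11% for ZT7 over ZT1 and 3.9% for ZT13 over ZT7, each 6 h apart. It was 4.9% for ZT19 over ZT15 and 1.47% for ZT23 over ZT19, each 4 h apart. Across lights on, ZT1 over ZT23, also 2 h apart, it was 2.16%, which is 135 of 6253 genes against 64 of 6354 across lights off. Pineal ZT15 over ZT13 gave 3.15%. The medians of some steps were off 0, such as -0.19 for ZT13 over ZT7, which the ZT15 over ZT13 step was not. Neighbouring steps share a pool, and the differences between these shares were not tested.

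**Figure D5:**
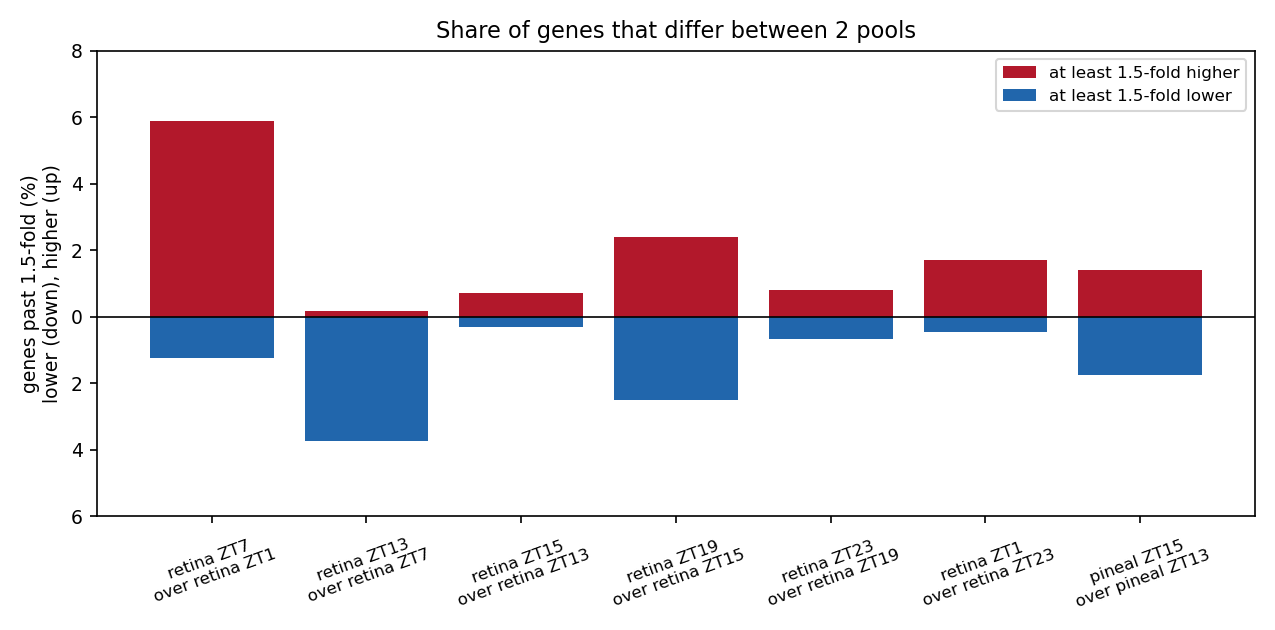
Bars give the percent of genes at or above the floor that were at least 1.5-fold higher (red, up) or lower (blue, down) between neighbouring retina times and, at the right, between pineal ZT15 and ZT13. Retina ZT15 over ZT13, with 0.708% higher and 0.299% lower, has the least bar height of the 6 retina steps.

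Both libraries carried the markers of their tissue label. The summed FPKM was 152868 at ZT15 and 152878 at ZT13 (152281 to 179277 over the 6 retina pools), and log2(FPKM + 1) correlated at 0.995 between both pools across genes, which are not independent replicates. Of the 6 rod markers in the table, all reached the floor in these pools and 0 passed 1.5-fold. Markers of neighbouring tissues were present: besides the lens and pigment epithelium sums above, red blood cell markers summed to 106 FPKM at ZT15 and 113 at ZT13, endothelial markers to 7.82 at ZT15 and 7.28 at ZT13, and skeletal muscle markers to 3.35 at ZT15 and 2.72 at ZT13. Of these, Cldn5, Slco1a4, Myh4 and Myl1 were listed at 0, but so were 13 cytosolic ribosomal protein genes, so a 0 in this table does not show absence.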

How the data were processed

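FPKM values per RefSeq transcript were deposited by the authors for 14 libraries; per the submitters' processing notes, the tools were Cufflinks 1.2.0 and TopHat 1.3.1 and the build was rn4. Per the labels' protocols, libraries were made from 10 µg of total RNA with poly(A) selection, random priming and 16 PCR cycles. Strandedness and lane sharing are not given in the sources used here; overlapping genes cannot be told apart. FPKM is relative to each library's own fragments.

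The 16932 transcripts were summed per gene ID to 16472 genes; 342 genes joined more than 1 transcript, 11 entries lacked a gene ID and stayed single, and 24 date-like symbols were restored from RefSeq names (GRCr8), where 16299 gene IDs were found. Start positions count from 0, since 99.7% of 1192 olfactory receptor spans are then whole codons, so 1 was added. The only columns used as groups were single pools, so ratios without pseudocount were taken for genes of at least 5 FPKM in either pool, and 1.5-fold was the threshold. The ratio step was tested on simulated data. Members and gene lists were chosen with earlier results of these data known. Genes were named by rule: the 15 largest rises and falls, the 10 largest of each at 50 FPKM or more and among genes with separate light and dark pools, genes with ZT15 or ZT13 apart by 1.5-fold, list members past 1.5-fold, and the immediate early, clock, rod and cone lists; other list members and called genes were named after their values were seen. Alternatives were other floors, pseudocounts of 1 and 0.1, 2 other scalings, unsummed transcripts and means with a neighbouring pool. Python 3.11.15, pandas 2.3.3, numpy 2.4.6 and matplotlib 3.10.9 were used. The mixed-tissue pools were not used here.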

Additional observations from a re-analysis of the deposited data

Results flagged for a closer look

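Usmg5, which codes for a small protein of the ATP synthase, stood out because it moved in opposite directions in both tissues between the same times. In the retina its log2 ratio of ZT15 over ZT13 was 1.00, with 8.16 FPKM at ZT15 and 4.07 at ZT13. In the pineal gland the log2 ratio was -0.60, with 10.6 FPKM at ZT15 and 16.0 at ZT13. The difference was not tested, since each time and tissue had 1 pool. Its retina ZT13 pool was the lowest of the 6.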

How the results depend on the processing

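Egr1 and Fos stayed past 1.5-fold under both other scalings, both pseudocounts, unsummed transcripts and both averaged pools. Fos, with 4.14 FPKM at ZT13, was left out by the floor of 5 FPKM in both pools. Scaling by median of ratios kept all 45 higher and 19 lower genes, and quantile normalization kept 44 of the 45 and all 19. The counts depended mainly on the floor and on which pool stands for each side. Genes at least 1.5-fold higher numbered 169 with a floor of 1 FPKM, 18 with a floor of 10, 21 with 5 FPKM in both pools and 759 with no floor; those lower numbered 170, 2, 5 and 813. At 2-fold, the same 4 floors gave 34, 5, 4 and 354 higher and 27, 0, 0 and 413 lower genes. With the mean of ZT7 and ZT13 in place of ZT13, 16 genes were 1.5-fold higher (12 of the 45 among them) and 41 lower (13 of the 19), and 5 were 2-fold higher and 2 lower. With the mean of ZT15 and ZT19 in place of ZT15, 95 were 1.5-fold higher (30 of the 45) and 40 lower (6 of the 19), and 32 were 2-fold higher and 0 lower. A pseudocount of 1 gave 8 lower genes (7 of the 19), and a pseudocount of 0.1 gave 2 genes 2-fold lower. Unsummed transcripts gave 29 lower, and 7 at 2-fold. With no floor, 10 immediate early genes were higher. Against the mean of ZT7 and ZT13, 5 rises turned: Atp5i to -0.63, Rpl41 to -0.22, Tomm7 to -0.096, Gng13 to -0.080 and Dynll1 to -0.053. The median log2 ratio of all genes in this setting was -0.092, beside 0.0045 in the main one. Tomm7, Gng13 and Dynll1 were thus near or above the typical gene, and the counts in this setting include that offset. Apart from the averaged pools, which mix another time of day in, and the floors, which change the genes counted, the cause was not tested. No paired analysis was possible because each time had 1 pool. FPKM gives no counts, so depth is known only as a rough estimate.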

Other observations

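Secretagogin, Scgn, a calcium-binding protein of some cone bipolar cells, had all 3 dark retina pools above all 3 light pools, at 7.82, 7.18, 6.08, 8.55, 8.88 and 8.46 FPKM from ZT1 to ZT23; its log2 ratio of ZT15 over ZT13 was 0.49. Dohh, the enzyme that completes hypusine on a translation factor, had all dark pools below all light pools, at 17.0, 21.8, 24.2, 16.3, 16.6 and 13.5 FPKM. Genes with 3 dark pools above 3 light pools numbered 66 and those below 970 among all 6354. These became 415 and 451 under median-of-ratios scaling and 392 and 460 under quantile normalization, so the imbalance between both directions depended on the scaling.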
